A study of Mus musculus with 30 samples.

Results

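The collagens described here are 10 genes of the mouse lung matrix: Col1a1, Col1a2, Col3a1, Col5a1 and Col5a2 of fibrils, Col4a1, Col4a2 and Col18a1 of basement membranes, and Col6a1 and Col6a2 of the fine filaments between them. Every probe set whose annotation gave exactly 1 of these symbols was taken, which made 25 of 36899 probe sets (20 on array type A, 1 on B and 4 on C). Of these, 23 were above the array floor on at least 2 arrays and were tested among 25801 tested probe sets. Total RNA of whole murine lung was measured on Affymetrix MG-U74 version 2 arrays. The animals were kept in a chamber with 10% O2, which induces pulmonary hypertension, for 10 h, 2 d, 4 d or 6 d, and 1 further group is titled Norm. Each group had 2 samples (1a and 1b), each on 1 array of each of 3 types. The labels do not spell out Norm and give no oxygen level for it. The description of its samples names only a mild acute rejection, which the labels leave unexplained, so whether Norm is a normoxic control is not settled, and each change from Norm below is a change from these samples. No strain, age or sex is given. They do not say that 1a and 1b were separate animals, so the spread behind every p-value is that of these samples and could be technical.

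Collagens are built from 3 polypeptide chains wound into a triple helix. Type I and type III collagen (Col1a1, Col1a2, Col3a1) form the fibrils that give lung septa, airways and vessel walls their strength, and type V chains (Col5a1, Col5a2) sit inside those fibrils and set their width. Type IV chains (Col4a1, Col4a2) form the sheet-like network of basement membranes under endothelium and epithelium. Type VI chains (Col6a1, Col6a2) form beaded filaments near cells, and Col18a1 is a basement membrane collagen whose end fragment is endostatin, an inhibitor of vessel growth. Collagen laid down in the walls of small pulmonary arteries is a known part of vascular remodelling in chronic hypoxia.

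Some arrays stood apart. A Norm array titled for type A lies in the table of type B, where its Spearman correlations with the other arrays lay between -0.00277 and 0.00963. It was left out, so type A held 9 arrays with 1 of Norm (1b), which is assumed to vary as the other groups did. On type A, the array labelled Norm 1b correlated best with the arrays labelled 4 d 1a on B (r = 0.160 over 1303 genes, against 0.0178 with its own label) and on C (0.153, against 0.0253). The array labelled 4 d 1a correlated best with Norm 1a on both types (0.121 and 0.0784, against -0.0117 and -0.0272). The labels were kept, and 19 of the 23 tested collagen probe sets are on type A, so each change from Norm and each 4 d value there rests on these 2 arrays being what their labels say. The 3' over 5' ratio of the Gapdh control probe sets, a check on intact RNA, was 3.64 to 4.60 on the 2 d arrays and 0.786 to 1.68 on all others. The same ratio for actin was, on type A, 0.644 on the Norm array, 0.0862 and 0.517 at 10 h, 3.77 and 4.62 at 2 d, 0.613 and 0.496 at 4 d, and 1.66 and 1.20 at 6 d. It was thus higher on the 2 d and 6 d arrays than on all others of type A, which is where most collagens were also higher than on Norm and 10 h, and its part in the collagen values was not tested. The brightest intensity on type A was 23383 on the Norm array, 14170 and 21992 at 10 h, and 40213 and 45948 at 2 d. It was 22043 and 22205 at 4 d and 32175 and 23940 at 6 d. The part of this range in the values of bright collagen probe sets was not tested. By their sample numbers, the 2 d and 6 d arrays form 1 run of deposit, apart from those of Norm, 10 h and 4 d. The type A arrays of Norm, 10 h and 4 d are numbered apart from their B and C arrays. The labels name no batch. A run of deposit cannot be told apart from time when 2 d or 6 d is set against Norm or 10 h. In whole lung, fewer cells of a type and less RNA per cell cannot be told apart.

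On type A, all 2 d and 6 d arrays lay above the Norm and 10 h arrays in 10 of the 19 tested collagen probe sets (9.75% of all type A probe sets did). These were both Col1a1 and all 3 Col3a1 probe sets, Col1a2 101130_at, Col5a2 92567_at, Col4a2 101039_at, Col6a1 162459_f_at and Col6a2 93517_at. The other 9 were the single Col4a1, both Col5a1 and all 4 Col18a1 probe sets, Col1a2 161156_r_at and Col6a1 95493_at. As a summary, each probe set was centred on its mean over the 9 arrays, and the mean of the 19 tested probe sets was taken per array, in log2 units. It was -0.31 on the array labelled Norm 1b, -0.28 and -0.22 at 10 h, 0.29 and 0.26 at 2 d, 0.24 and -0.34 at 4 d, and 0.15 and 0.21 at 6 d. In this mean, both 2 d and both 6 d arrays stood above the Norm array and both 10 h arrays. The 4 d pair was split, with 1a beside the 2 d and 6 d arrays and 1b beside Norm and 10 h. Were the labels Norm 1b and 4 d 1a exchanged, the Norm value of this mean would be 0.24. That value lies among those of 2 d and 6 d and above both of 10 h. Changes below are log2 differences ± the standard error (SE) from limma, fitted over all groups, and a probe set passed when its p, adjusted by the Benjamini-Hochberg method over all 25801 probe sets, was under 0.05.

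**Figure D1:**
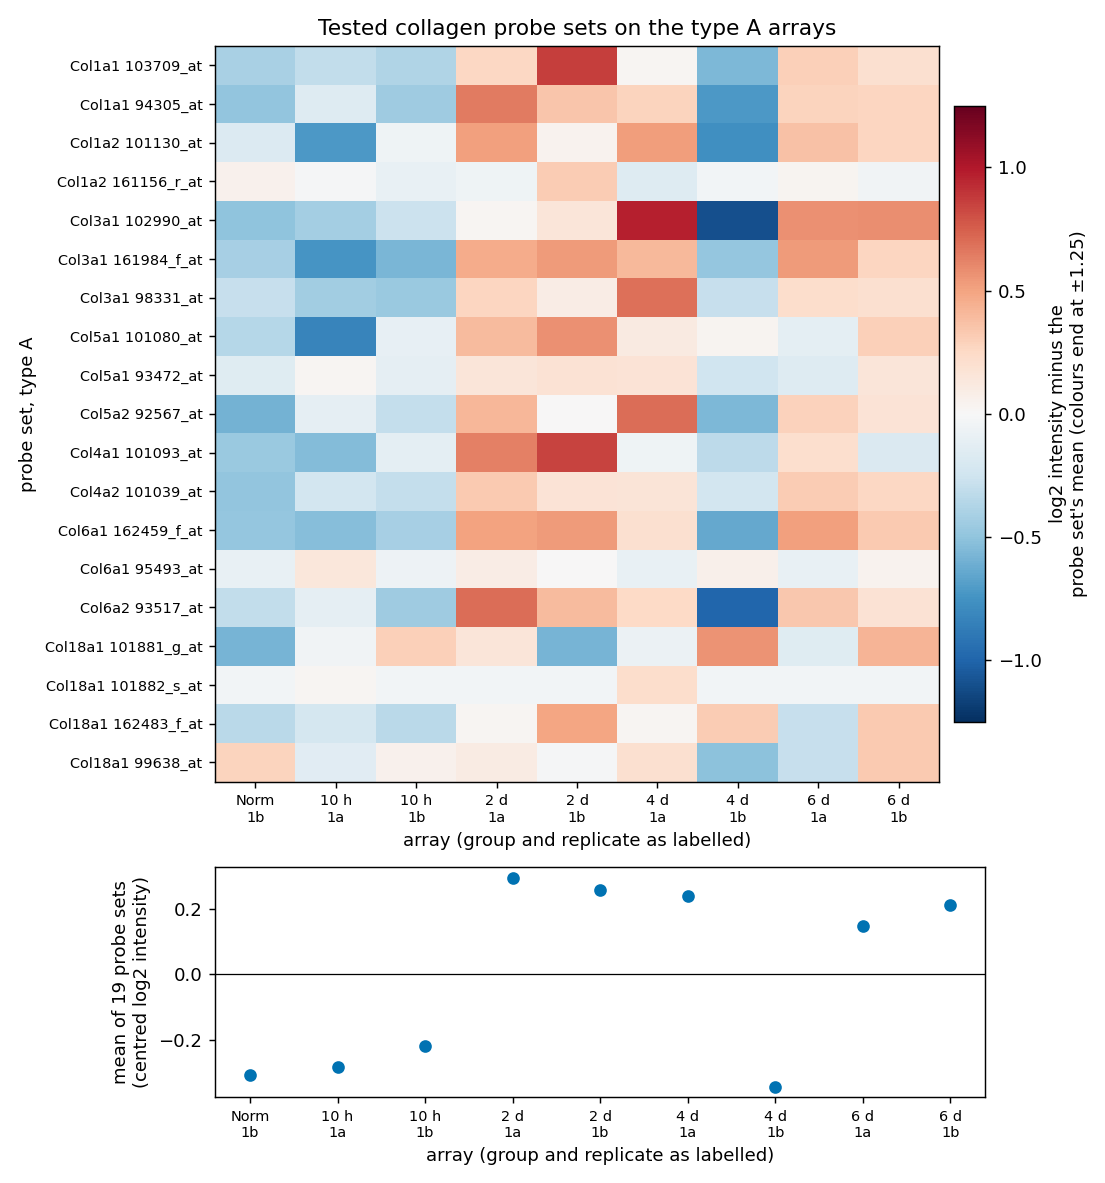
The upper panel shows, for the 19 tested collagen probe sets on type A (rows) and the 9 arrays (columns, as labelled), the log2 intensity minus the probe set's mean, with red above and blue below that mean. The lower panel gives the mean of the 19 values per array, which is 0.29 and 0.26 on the 2 d arrays, 0.24 and -0.34 on the 4 d arrays and -0.31 on the Norm array.

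No collagen probe set passed limma's test in any of 8 comparisons or in the F test. At 2 d 0 of 23 passed (background 1.86% of all probe sets), and so did 0 at 10 h (background 0%), 4 d (0.00775%) and 6 d (0%). None passed in the mean of the 4 hypoxia groups (background 0%), in the later times (4 d and 6 d averaged) against the earlier ones (10 h and 2 d averaged; 0.0155%), in 4 d minus 10 h (0.0233%), in 6 d minus 2 d (0.0620%) or in the F test over the 4 comparisons with Norm (1.24%). The smallest adjusted p of limma was 0.0797 in the F test, for a Col5a1 probe set, and 0.0827 at 2 d, for Col4a1. With an unadjusted p under 0.05, 7 of 23 collagen probe sets stood out in the F test, against 19.6% of all probe sets. At 2 d, 6 of 23 were higher at that unadjusted p (background 9.00%) and 0 lower (9.85%). At 6 d, 4 of 23 were higher (background 4.34%) and 0 lower (4.82%). In the others the unadjusted p was under 0.05 for 1 of 23 at 10 h (background 6.11%), 1 at 4 d (6.13%), 2 in the mean of the hypoxia groups (7.79%), 1 in the later against the earlier times (11.0%), 3 in 4 d minus 10 h (8.08%) and 1 in 6 d minus 2 d (13.0%).

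The median log2 change of the 23 collagen probe sets was 0.06 at 10 h, 0.47 at 2 d, 0.14 at 4 d and 0.48 at 6 d, and over all tested probe sets it was 0 at each time. These 4 comparisons share the same Norm arrays. On type A, both arrays of a time lay above the single Norm array in 15 of 19 collagen probe sets at 2 d (35.4% of all type A probe sets did) and in 15 of 19 at 6 d (33.1%). The corresponding counts were 8 of 19 at 10 h (30.6%) and 6 of 19 at 4 d (25.6%).

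**Figure D2:**
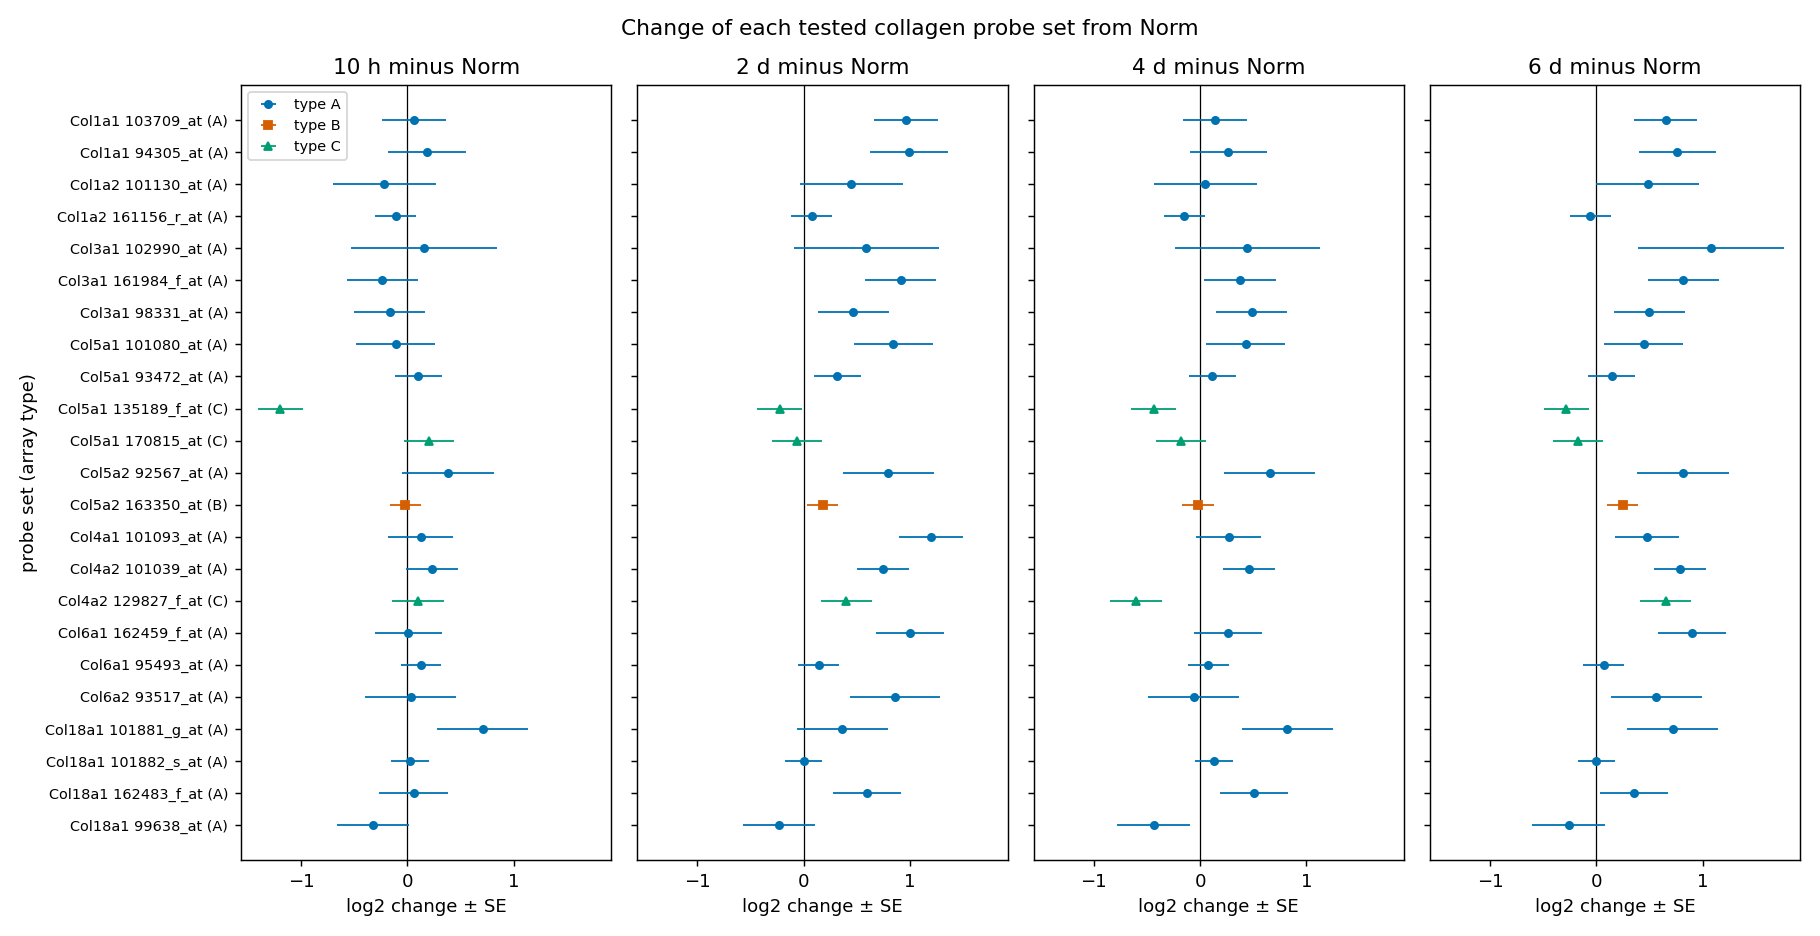
Each point is the log2 change of 1 of the 23 tested collagen probe sets from Norm, with the SE of the fit as a bar, in 4 panels for 10 h, 2 d, 4 d and 6 d. Symbols give the array type, with circles for A, squares for B and triangles for C. At 2 d and 6 d most type A points lie right of 0, with Col4a1 farthest at 2 d (1.20), and at 10 h most lie near 0.

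Col1a1 encodes the main chain of type I collagen, and its 2 probe sets on type A moved alike (Pearson r = 0.841 over 9 arrays). The intensity of 94305_at was 4497 on the Norm array, 5640 and 4649 at 10 h, 9912 and 8049 at 2 d, 7642 and 3831 at 4 d, and 7644 and 7596 at 6 d. That of 103709_at was 3542 on the Norm array, 3798 and 3620 at 10 h, 5604 and 8532 at 2 d, 4782 and 3182 at 4 d, and 5744 and 5377 at 6 d. In both probe sets the 2 d and 6 d arrays lay above the Norm and 10 h arrays without overlap, and the array labelled 4 d 1b lay below the Norm array. At 2 d minus Norm the changes were 0.99 ± 0.37 (94305_at, adjusted p = 0.191) and 0.97 ± 0.30 (103709_at, adjusted p = 0.132), and at 6 d 0.76 and 0.65, none of which passed.

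Col1a2, the partner chain of type I collagen, gave different answers on its 2 probe sets (r = -0.128). The intensity of 101130_at was 4298 on the Norm array, 2936 and 4657 at 10 h, 6917 and 4971 at 2 d, 6944 and 2845 at 4 d, and 6219 and 5806 at 6 d. Both 2 d and both 6 d arrays were higher than the Norm and 10 h arrays, by 0.45 ± 0.49 (adjusted p = 0.672) and 0.48 ± 0.49 (adjusted p = 0.832) from Norm, within the spread. On 161156_r_at, whose suffix marks a probe set that broke the array maker's design rules, all 9 arrays lay between 2059 and 2858 and the change at 2 d was 0.08 ± 0.19. Over the arrays, 101130_at ran with Col1a1 94305_at (r = 0.795), and 161156_r_at did not (r = 0.141). These correlations are over 9 arrays that share their scaling and carry no test.

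Col3a1 encodes type III collagen, the fibril collagen of compliant tissue such as vessel wall. Its 3 probe sets agreed over the arrays (r = 0.778, 0.845 and 0.881). The intensity of 161984_f_at was 889 on the Norm array, 713 and 800 at 10 h, 1636 and 1709 at 2 d, 1567 and 848 at 4 d, and 1716 and 1432 at 6 d. That of 98331_at was 3700 on the Norm array, 3343 and 3262 at 10 h, 5440 and 4818 at 2 d, 7252 and 3699 at 4 d, and 5254 and 5196 at 6 d. In both, 10 h lay below Norm, while 2 d and 6 d lay above both without overlap. The third, 102990_at, was dimmer, at 355 on the Norm array, and spread widely at 4 d, with 991 (1a) and 192 (1b), the second below the floor of 236.05. At 2 d minus Norm the changes were 0.91 ± 0.34 (161984_f_at, adjusted p = 0.193), 0.47 ± 0.33 (98331_at) and 0.59 ± 0.68 (102990_at). At 6 d they were 0.82, 0.50 and 1.08, and none passed. The suffix of 161984_f_at marks probes shared with other transcripts, so its level may hold signal of these.

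Col5a2, which partners Col5a1 in type V collagen, was read on type A by 92567_at, with 1894 on the Norm array, 2634 and 2315 at 10 h, 3790 and 2851 at 2 d, 4612 and 1927 at 4 d, and 3467 and 3203 at 6 d. All hypoxia arrays lay above the Norm array, and 4 d 1b lay nearest to it. The change was 0.80 ± 0.43 at 2 d (adjusted p = 0.366) and 0.82 ± 0.43 at 6 d (adjusted p = 0.637). Its profile ran with those of the 3 Col3a1 probe sets (r = 0.770 to 0.884 over 9 arrays). Col3a1 and Col5a2 are neighbours on chromosome 1, with 0 annotated protein-coding genes between them. The type B probe set 163350_at was near its floor of 297.36, with 305 and 195 in Norm, 153 and 110 at 10 h, 310 and 375 at 2 d, 176 and 187 at 4 d, and 406 and 314 at 6 d. Its 2 d and 6 d arrays lay above both Norm arrays, as on type A, and its 10 h and 4 d arrays all lay at the floor. A type C probe set of Col5a2, 167762_at, was above its floor on 1 of 10 arrays and was not tested.

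Col5a1 encodes the main chain of type V collagen, and its 4 probe sets disagreed. On type A, 101080_at read 488 on the Norm array, 352 and 582 at 10 h, 823 and 931 at 2 d, 677 and 639 at 4 d, and 576 and 767 at 6 d. Each array from 2 d on was higher than the Norm array, and the change at 2 d was 0.84 ± 0.37 (adjusted p = 0.270). The second type A probe set, 93472_at, lay between 1916 and 2582 on all 9 arrays, with a change of 0.32 ± 0.22 at 2 d. The type C probe set 135189_f_at, where Norm had 2 arrays, went another way. Its intensity was 6650 and 5450 in Norm, 3142 and 2201 at 10 h, 5465 and 4852 at 2 d, 5074 and 3904 at 4 d, and 5054 and 4853 at 6 d. Both 10 h arrays were below every other array, and only 2 d 1a, barely above Norm 1b, overlapped with Norm among the later ones. The change at 10 h was -1.19 ± 0.21, 0.437-fold, with limma's unadjusted p of 0.000289 and an adjusted p of 0.282. At that time 0 of 25801 probe sets passed. At 4 d minus 10 h the change was 0.76 ± 0.21 (adjusted p = 0.345). On the type A probe sets the change at 10 h was -0.11 ± 0.37 and 0.11 ± 0.22, so the low 10 h level was seen on 1 of the 3 brighter Col5a1 probe sets, a probe set whose suffix marks shared probes. The other type C probe set, 170815_at, was above its floor of 200.93 on 4 of 10 arrays.

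**Figure D3:**
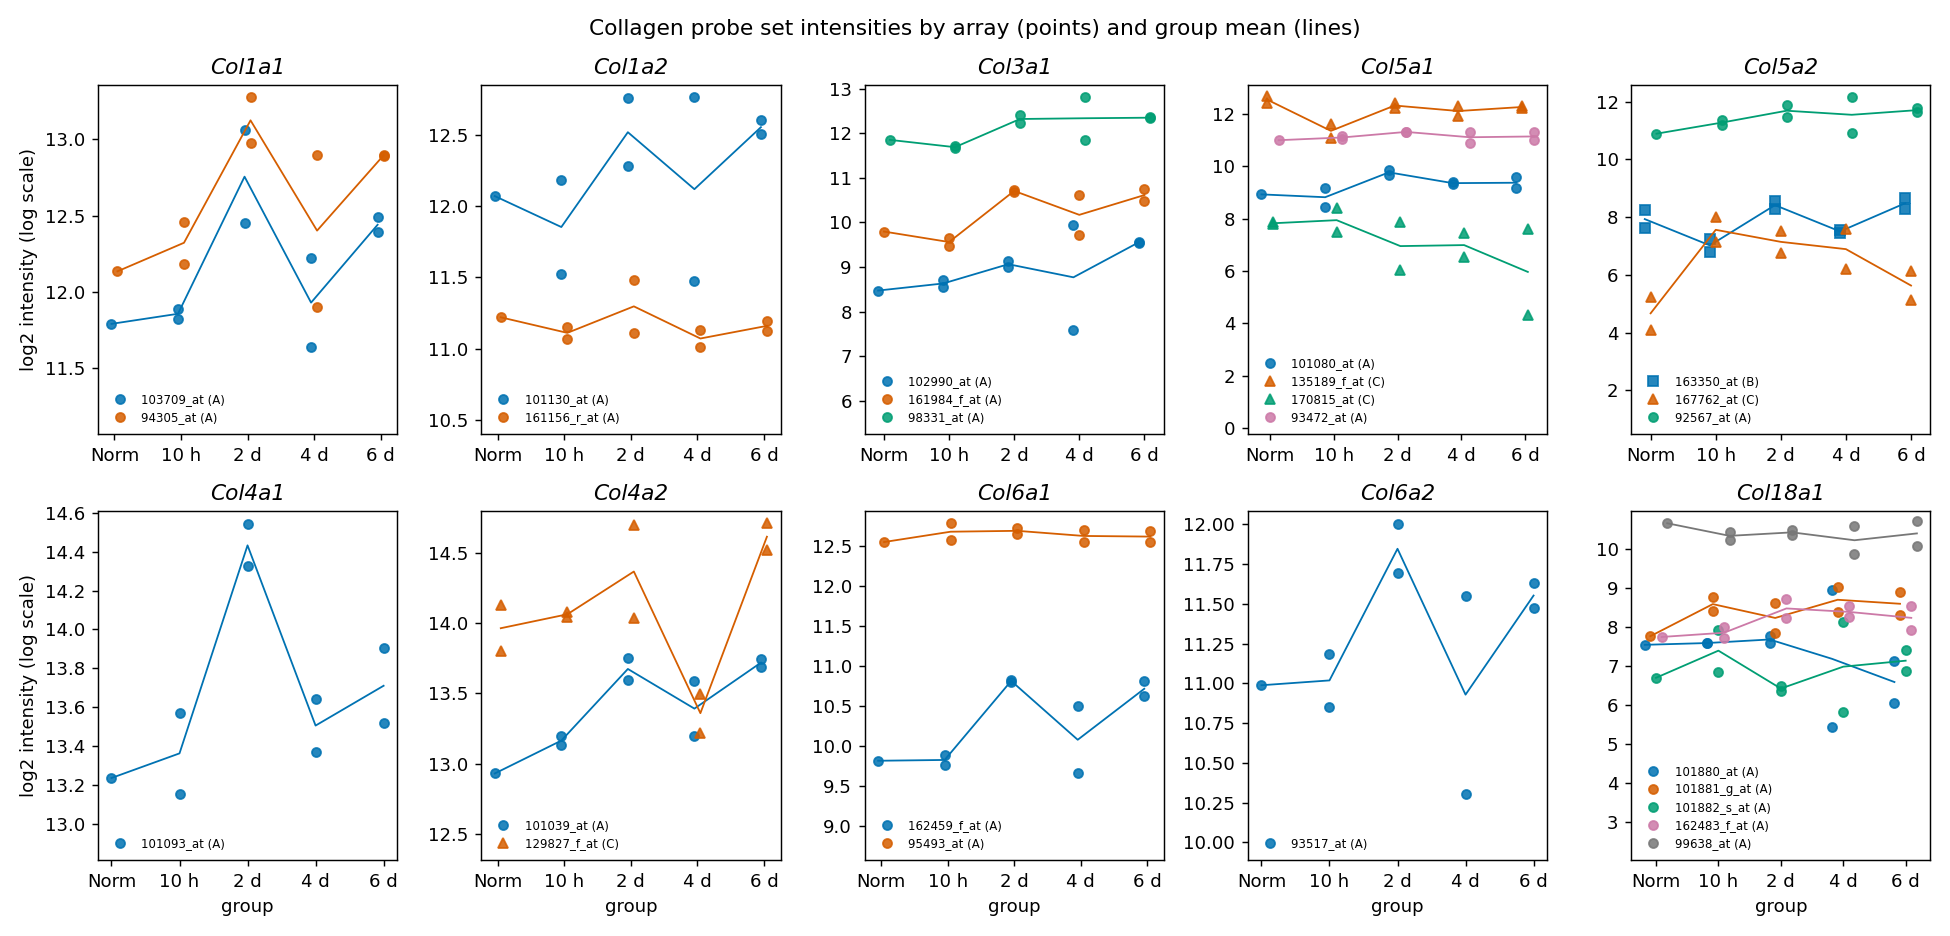
Each panel shows 1 collagen gene, with log2 intensity on the vertical axis (a log scale that differs between panels) and the groups Norm, 10 h, 2 d, 4 d and 6 d on the horizontal axis. Points are single arrays, lines join group means, colours mark probe sets and symbols array types, and Norm has 1 point on type A. Both 2 d points stand above the Norm and 10 h points in both Col1a1 probe sets and in Col4a1 and Col6a2, and the 4 d points lie far apart in Col1a2 101130_at, Col3a1, Col5a2 92567_at and Col6a2.

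Col4a1 had the largest change of any collagen probe set at 2 d. Its single probe set, 101093_at on type A, read 9643 on the Norm array, 9124 and 12150 at 10 h, 20530 and 23837 at 2 d, 12790 and 10570 at 4 d, and 15317 and 11728 at 6 d. The 2 d arrays were the brightest of all and did not overlap with any other group. The change at 2 d was 1.20 ± 0.30, 2.29-fold, with a 95% interval of 0.50 to 1.89 and an adjusted p of 0.0827. At 6 d the change from Norm was 0.48 ± 0.30 (adjusted p = 0.706), and 6 d minus 2 d was -0.72 ± 0.25, where both 6 d arrays lay below both 2 d arrays (adjusted p = 0.261). Those 2 groups belong to 1 run of deposit, and their Gapdh ratios on type A were 1.68 and 1.46 at 6 d and 4.28 and 3.97 at 2 d. Whether the 2 d level moved with RNA integrity or with the brightest intensity of the array was not tested.

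Col4a2, the partner of Col4a1 in the basement membrane network, stood above Norm at 2 d and 6 d on type A by values that did not pass the test. The intensity of 101039_at was 7809 on the Norm array, 9389 and 8979 at 10 h, 13802 and 12371 at 2 d, 12297 and 9395 at 4 d, and 13752 and 13211 at 6 d. Every hypoxia array lay above the Norm array. The change was 0.74 ± 0.25 at 2 d (adjusted p = 0.152) and 0.79 ± 0.25 at 6 d (adjusted p = 0.378), and 6 d minus 2 d was 0.04 ± 0.20. The type C probe set 129827_f_at read 17894 and 14254 in Norm, 17320 and 16891 at 10 h, 26515 and 16813 at 2 d, 9539 and 11579 at 4 d, and 26752 and 23481 at 6 d. Here both 6 d arrays lay above both Norm arrays and both 4 d arrays below, the 2 d pair overlapped with Norm, and the changes were 0.65 ± 0.24 at 6 d (adjusted p = 0.453) and -0.60 ± 0.24 at 4 d (adjusted p = 0.758). The Col4a2 probe sets thus pointed in opposite directions at 4 d (0.46 ± 0.25 on type A) and the same way at 6 d. The suffix of 129827_f_at marks probes shared with other transcripts, so its level may hold signal of these. The correlation of the 2 Col4a2 probe sets over 9 samples was 0.513, and that of Col4a1 with Col4a2 on type A was 0.697.

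Col4a1 and Col4a2 lie head to head on chromosome 8, and their annotated starts are 21 bases apart, so that each start window of 300 bases (250 before the start and 50 from it) shares 78 bases with the other. Both windows are shown because these chains are read from opposite strands of 1 short stretch, and those of Col1a2 and Col3a1 because they carry motifs that the type IV windows lack. The sequences are from RefSeq on GRCm38.p6, written 5' to 3' on each gene's own strand, at chr8:11312777-11313076 (minus strand, Col4a1), chr8:11312555-11312854 (plus, Col4a2), chr6:4505368-4505667 (plus, Col1a2) and chr1:45311288-45311587 (plus, Col3a1). Capitals mark 4 motifs searched on both strands: GGGCGG is known as the GC box, CCAAT is the box of that name, TATAA is the TATA box and ACGTG is the core of hypoxia response elements.
Col4a1: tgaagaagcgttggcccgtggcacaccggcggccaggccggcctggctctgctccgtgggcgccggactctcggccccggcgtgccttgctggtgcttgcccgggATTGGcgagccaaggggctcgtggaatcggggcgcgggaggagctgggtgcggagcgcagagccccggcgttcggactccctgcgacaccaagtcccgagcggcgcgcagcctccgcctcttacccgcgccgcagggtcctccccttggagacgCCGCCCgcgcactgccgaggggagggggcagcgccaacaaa
Col4a2: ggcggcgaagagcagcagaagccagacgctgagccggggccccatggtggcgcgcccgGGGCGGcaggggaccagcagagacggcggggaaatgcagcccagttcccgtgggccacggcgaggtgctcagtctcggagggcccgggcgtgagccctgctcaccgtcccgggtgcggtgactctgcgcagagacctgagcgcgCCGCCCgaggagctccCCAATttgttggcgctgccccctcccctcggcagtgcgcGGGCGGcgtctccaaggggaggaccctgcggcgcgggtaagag
Col1a2: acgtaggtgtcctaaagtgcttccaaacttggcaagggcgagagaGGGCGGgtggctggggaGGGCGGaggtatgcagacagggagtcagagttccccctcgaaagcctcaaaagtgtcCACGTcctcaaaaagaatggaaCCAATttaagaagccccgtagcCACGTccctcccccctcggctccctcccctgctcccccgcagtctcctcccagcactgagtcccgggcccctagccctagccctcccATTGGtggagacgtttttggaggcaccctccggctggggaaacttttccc
Col3a1: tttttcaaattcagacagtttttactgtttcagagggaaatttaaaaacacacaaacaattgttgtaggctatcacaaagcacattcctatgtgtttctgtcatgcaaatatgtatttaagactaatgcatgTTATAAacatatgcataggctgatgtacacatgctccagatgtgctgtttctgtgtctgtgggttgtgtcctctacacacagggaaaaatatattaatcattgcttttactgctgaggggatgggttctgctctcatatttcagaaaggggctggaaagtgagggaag
The Col4a1 window holds 1 GC box and 1 CCAAT, the Col4a2 window 3 and 1, the Col1a2 window 2 and 2 with 2 ACGTG, and the Col3a1 window 0 of these and 2 TATAA that overlap on opposite strands.

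Windows were found for 8 of the 10 genes (10 windows in all, with 2 each for Col6a2 and Col18a1), and Col1a1 and Col5a2 are named only. Of the 10 windows, 7 held GGGCGG (35.7% of 32851 windows of mouse genes did), 4 held CCAAT (37.4%), 2 held ACGTG, those of Col1a2 and Col5a1 (19.6%), and 1 held TATAA, that of Col3a1 (24.9%). The GC content was 73.7% for Col4a2, 75.0% for Col5a1, 61.0% for Col1a2 and 37.7% for Col3a1, against a median of 52.7% over all windows. A match is a run of letters and not a site shown to be bound.

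Col6a1 and Col6a2 encode chains of type VI collagen, and they lie beside each other on chromosome 10 with 0 annotated protein-coding genes between them. Col6a1 162459_f_at read 899 on the Norm array, 870 and 942 at 10 h, 1779 and 1815 at 2 d, 1445 and 805 at 4 d, and 1791 and 1573 at 6 d. Col6a2 93517_at read 2031 on the Norm array, 2332 and 1845 at 10 h, 4094 and 3311 at 2 d, 3000 and 1267 at 4 d, and 3168 and 2846 at 6 d. In both, the 2 d and 6 d arrays lay above the Norm and 10 h arrays without overlap and 4 d 1b was the lowest of all 9, and the probe sets ran together (r = 0.895). The changes at 2 d were 0.999 ± 0.32 (adjusted p = 0.139) for Col6a1 and 0.86 ± 0.43 (adjusted p = 0.328) for Col6a2, and at 6 d 0.90 ± 0.32 (adjusted p = 0.436) and 0.56 ± 0.43 (adjusted p = 0.764). The other Col6a1 probe set, 95493_at, whose name carries no mark of shared probes, did not show this course. It lay between 5991 and 7041 on all 9 arrays, with a change of 0.14 ± 0.19 at 2 d and a correlation of -0.123 with 162459_f_at. Col6a3, a type VI chain outside the 10 genes, read 4437 on the Norm array and 5221 and 4247 at 10 h. It read 5198 and 4049 at 2 d, 5956 and 4428 at 4 d, and 5392 and 4775 at 6 d. The 2 d and the 6 d pair of Col6a3 each overlapped with its 10 h pair. Without the sample 4 d 1a, Col6a1 162459_f_at passed at 2 d (adjusted p = 0.0493), and it did so without 4 d 1b (adjusted p = 0.0472).

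Col18a1 was read by 5 probe sets on type A, of which 99638_at alone was above the floor on every array. Its intensity was 1625 on the Norm array, 1211 and 1393 at 10 h, 1443 and 1324 at 2 d, 1541 and 936 at 4 d, and 1093 and 1683 at 6 d. The Norm array lay above all others but 6 d 1b, and the change at 2 d was -0.23 ± 0.34 (adjusted p = 0.772). The probe sets 101881_g_at and 162483_f_at, with shared probes, read at most 520 and 421 and were each above the floor on 7 of 9 arrays, 101882_s_at on 2 and the untested 101880_at on 1. Among themselves the 4 tested Col18a1 probe sets correlated at -0.255 to 0.230. None of the 4 tested Col18a1 probe sets had all its 2 d and 6 d arrays above Norm and 10 h.

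Setting 2 d and 6 d against 10 h removes the dependence on the single Norm array. This comparison was added after the data were seen, and it crosses runs of deposit. At 2 d minus 10 h, 2 of 23 collagen probe sets passed limma's test (background 5.44% of all probe sets, passing in either direction). Both were higher. They were Col4a1 101093_at (1.07 ± 0.25, adjusted p = 0.0459) and Col5a1 135189_f_at (0.97 ± 0.21, adjusted p = 0.0352), and for the second the low 10 h level given above is the base. Close to the threshold were Col3a1 161984_f_at (1.15 ± 0.28, adjusted p = 0.0513) and Col6a1 162459_f_at (0.99 ± 0.26, adjusted p = 0.0654). At 6 d minus 10 h 0 of 23 passed (background 0.0969%), and 7 had an unadjusted p under 0.05 (12.3% of all probe sets).

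A further fit left out the type A arrays labelled Norm 1b and 4 d 1a, which also takes the wide 4 d pair out of the estimate of spread. In it, 6 of 22 collagen probe sets passed limma's test at 2 d minus 10 h (background 7.02%, passing in either direction). All 6 were higher. These were Col3a1 161984_f_at (adjusted p = 0.0148) and 98331_at (0.63 ± 0.12, adjusted p = 0.0301), Col6a1 162459_f_at (adjusted p = 0.0155), Col5a1 135189_f_at (adjusted p = 0.0306), Col6a2 93517_at (0.83 ± 0.17, adjusted p = 0.0376) and Col1a1 94305_at (0.80 ± 0.17, adjusted p = 0.0406). Col4a1 then had an adjusted p of 0.0561 and Col1a1 103709_at of 0.0506. At 6 d minus 10 h 0 of 22 passed (background 0.492%), and 12 had an unadjusted p under 0.05 (14.3%). The smallest adjusted p were 0.0561 for Col3a1 161984_f_at, with a change of 1.05, and 0.0617 for Col6a1 162459_f_at, with 0.89. The difference between the 2 d and 6 d responses is 6 d minus 2 d, where 0 of 23 passed. With the same 2 arrays left out, no type A comparison with Norm remains, and the 4 collagen probe sets on B and C gave 0 passes. Their changes at 2 d minus Norm were -0.23 and -0.06 for Col5a1 (135189_f_at and 170815_at), 0.40 for Col4a2 and 0.18 for Col5a2. At 6 d minus Norm they were, in the same order, -0.28, -0.18, 0.65 and 0.25. Of these, 170815_at and Col5a2 163350_at lay near the floor.

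**Figure D4:**
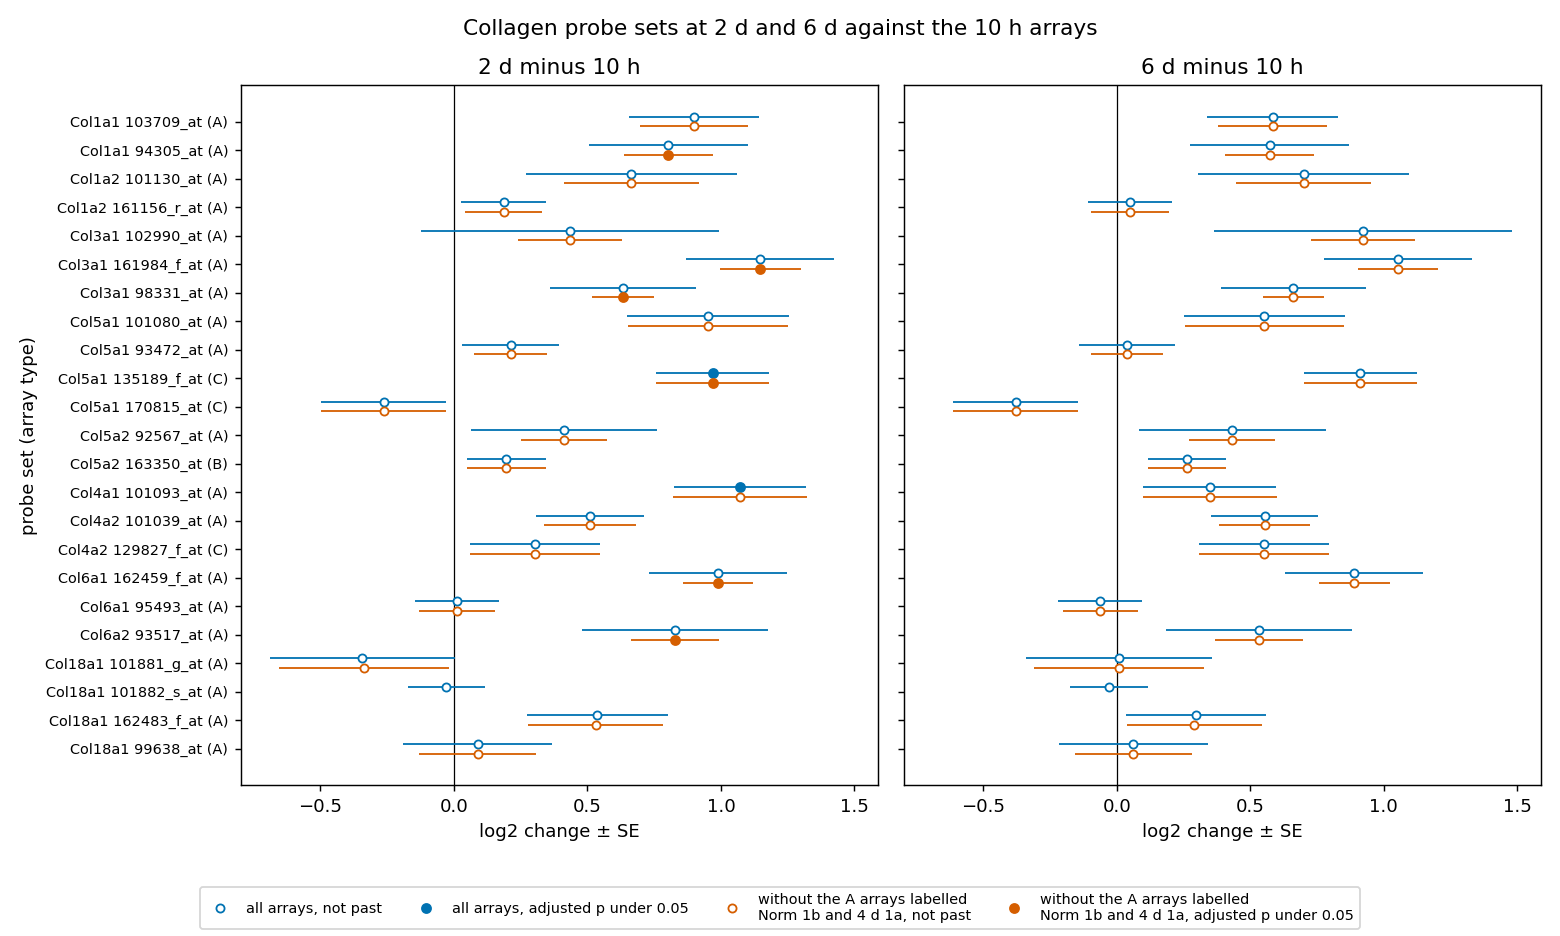
Points give the log2 change of each tested collagen probe set at 2 d (left) and 6 d (right) minus 10 h, with SE bars. Blue is the fit to all arrays, orange the fit without the type A arrays labelled Norm 1b and 4 d 1a, and filled points passed an adjusted p of 0.05. At 2 d, 2 points are filled in blue and 6 in orange, and at 6 d 0 are filled.

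Beside the 10 h comparisons, the Gapdh ratio on type A was 0.909 and 1.11 at 10 h. It was 4.28 and 3.97 at 2 d and 1.68 and 1.46 at 6 d. The actin ratio and the brightest intensity given above also lay higher at both later times than at 10 h. The summed intensity of 9 fibroblast markers on type A was 13216 on the Norm array, 12966 and 15689 at 10 h, 16041 and 16165 at 2 d, 18294 and 15830 at 4 d, and 18929 and 17563 at 6 d. None of the 10 tested markers of that list passed at 2 d or 6 d, and their median log2 change was 0.05 at 2 d and 0.18 at 6 d. At 2 d, 5 were above 0 and 5 below. Mfap4, on a probe set whose suffix marks shared probes, gave most of the rise of the 2 d sum from Norm. It read 384 on the Norm array, 3398 and 2423 at 2 d and 2596 and 4149 at 6 d. Dpt read 1640 on the Norm array and 1111 and 926 at 2 d. The 6 smooth muscle markers summed to 16248 on the Norm array, 21326 and 24938 at 10 h, 25395 and 23711 at 2 d, 21283 and 13489 at 4 d, and 13846 and 11883 at 6 d. The markers of this list did not move together, for at 2 d 3 of 6 were above 0 and 3 below, with a median change of -0.18, and the 2 d sum was carried by Acta2 (11138 and 11493 at 2 d, 5726 on the Norm array) and Tagln (10151 and 9312 at 2 d, 5191 on the Norm array). At 6 d all 6 were below 0, with a median of -0.57, and none passed at either time.

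Sums of other cell types also stood higher at 2 d and 6 d than on Norm and 10 h, as 10 of the 19 collagen probe sets did. Those of 5 type 2 cell markers were 53158 on the Norm array, 29514 and 47349 at 10 h, 71905 and 76971 at 2 d, 48790 and 50697 at 4 d, and 67073 and 56144 at 6 d. Those of 4 type 1 cell markers were 44574 on the Norm array, 23760 and 43993 at 10 h, 62462 and 63312 at 2 d, 42752 and 39052 at 4 d, and 51681 and 47129 at 6 d. In both lists 2 d and 6 d did not overlap with Norm and 10 h, and neither list had a marker that passed at 2 d or 6 d. Those of 2 club cell markers were 26461 on the Norm array, 14946 and 28353 at 10 h, 41503 and 48481 at 2 d, 23297 and 22781 at 4 d, and 41283 and 30617 at 6 d. These 2 markers went opposite ways, and the 2 d sum was carried by Scgb1a1 (12923 on the Norm array, 38291 and 45063 at 2 d). Cyp2f2 read 13539 on the Norm array, 3212 and 3418 at 2 d and 9599 and 9338 at 6 d. It passed limma's test at 2 d, downward. The sums of 5 macrophage markers were 8048 on the Norm array, 7726 and 7238 at 10 h, 8857 and 8080 at 2 d, 8905 and 8461 at 4 d, and 12268 and 10134 at 6 d. A sum is weighted to its brightest members. The median change at 2 d was -0.09 over 7 tested type 2 markers and 0.44 over 5 type 1 markers. It was 0.16 over 3 club cell and 0 over 5 macrophage markers. Sftpc carried the type 2 sum at 2 d, with 7199 on the Norm array and 36691 and 42808 at 2 d. Sftpb read 17146 on the Norm array and 9814 and 9349 at 2 d. Of the 7 type 2 markers, 3 were above 0 at 2 d and 4 below. Of the 2 mesothelial markers tested, Msln read 1444 and 1654 at 2 d, 1316 and 1069 at 6 d and 685 on the Norm array (1.17 ± 0.29 at 2 d, adjusted p = 0.0801). Upk3b read 2373 and 1762 at 2 d, 2060 and 2070 at 6 d and 2040 on the Norm array, with a change of 0.0034 ± 0.32 at 2 d.

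The 8 endothelial markers varied less, from 35897 to 47751 over the 9 arrays. Of 7 cartilage markers 2 were tested, and Acan, Comp, Matn1, Matn3 and Cnmd were not above the floor on 2 arrays. Skeletal muscle markers summed to 9387 on the Norm array, 4474 and 7304 at 4 d and 842 to 2809 on the 10 h, 2 d and 6 d arrays, so the Norm array was the highest in markers of that tissue. The part of these differences in the collagen values was not tested.

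Enzymes that fold, cut and crosslink collagen gave no call. Of 16 tested genes of chain modification and folding, 0 passed in any comparison, and their median change was 0.07 at 2 d and 0.16 at 6 d. Ppib, a cyclophilin of the collagen folding complex, read 3084 and 2567 at 2 d, 3115 and 2597 at 6 d and 2060 on the Norm array (0.45 ± 0.27 at 2 d, adjusted p = 0.421). Of 6 tested genes of cleavage and crosslinking 0 passed. Lox, lysyl oxidase, which crosslinks collagen and elastin, read 463 on the Norm array, 1589 and 1685 at 10 h, 885 and 1116 at 2 d, 1569 and 447 at 4 d, and 1393 and 1422 at 6 d. Lox was thus above the Norm array on both 10 h arrays (1.82 ± 0.59, adjusted p = 0.650), when Col1a1 and Col3a1 were near the Norm array, though it did not pass. Adamts14, a protease that trims procollagen ends, read 1590 and 1187 at 2 d and 625 and 1006 in Norm (0.79 ± 0.29, adjusted p = 0.185).

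Among 10 tested genes of proteins that bind fibrils, 1 passed, downward at 2 d. This was Ogn, mimecan, a small leucine-rich proteoglycan, at 1655 and 1711 at 2 d and 5409 on the Norm array, a log2 change of -1.69 ± 0.28 with limma's adjusted p = 0.0305. Dcn, decorin, which coats type I fibrils, read 6495 and 4801 at 2 d, 4958 and 4842 at 6 d and 10112 on the Norm array (-0.86 ± 0.30 at 2 d, adjusted p = 0.174). Fn1, fibronectin, read 2356 and 3170 at 2 d and 1799 on the Norm array (0.60 ± 0.23, adjusted p = 0.205). The median change of the list was -0.45 at 2 d and 0.16 at 6 d, so at 2 d it had the opposite sign to that of the collagens.

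The basement membrane partners of type IV collagen, the laminins, nidogens and proteoglycans, held 14 tested genes. Their median change was -0.27 at 2 d, with 5 above 0 (49.7% of all probe sets), and 0.20 at 6 d. None passed at either time. At 6 d minus 2 d, 13 of 14 were above 0 (46.6% of all probe sets), with a median of 0.17 and 0 past the threshold. Pxdn, peroxidasin, which crosslinks type IV collagen, read 2784 and 2769 at 6 d and 1828 and 1537 at 2 d (0.73 ± 0.14, adjusted p = 0.0967). Lama3, a laminin chain, read 1309 and 1314 at 6 d and 718 and 391 at 2 d (1.31 ± 0.28, adjusted p = 0.120). Col4a1, at -0.72, and Pxdn lay on opposite sides of 0 in this comparison.

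Of the 19 other collagen genes tested, 0 passed in any comparison. At 2 d, 14 of them were above 0 (49.7% of all probe sets were), with a median change of 0.14. The median at 6 d was 0.17. Some of the 19, such as Col10a1, Col11a1 and Col12a1, lay at the floor on most of their arrays. Col16a1, a fibril-associated collagen, read 829 and 930 in Norm, 742 and 744 at 10 h, 1208 and 1421 at 2 d, 734 and 578 at 4 d, and 1169 and 1298 at 6 d. Its 2 d and 6 d arrays lay above all others on type B (0.58 ± 0.20 at 2 d, adjusted p = 0.170). Col4a4, a type IV chain of specialised basement membranes, read 8929 and 8877 at 6 d and 6904 and 6090 in Norm (0.46 ± 0.14, adjusted p = 0.355). Of 7 tested receptors 0 passed, and Ddr2, a receptor kinase for fibrillar collagen, read 1286 and 1069 at 2 d and 2546 on the Norm array (-1.12 ± 0.26, adjusted p = 0.0708).

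The genes outside the family whose profile over the 9 type A arrays was most like the mean collagen profile, of 6261 genes ranked, were Clca1 (Pearson r = 0.971), Bpgm (0.960), Ackr3 (0.959), Rflnb (0.955), Pimreg (0.954), Mrpl51 (0.951), Selenok (0.936) and Anapc13 (0.929). Clca1 read 284 on the Norm array, 328 and 280 at 10 h, 1658 and 1481 at 2 d, 1496 and 411 at 4 d, and 1247 and 1497 at 6 d, with the same split of the 4 d pair. Bpgm, an enzyme of red cells that sets the oxygen affinity of haemoglobin, read 1209 on the Norm array, 2714 and 2658 at 2 d, 2907 and 1101 at 4 d, and 2553 and 2028 at 6 d. These 9 arrays share the labels in doubt and the runs of deposit, and the ranking is a description with no test.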

How the data were processed

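The authors deposited a linear intensity for each probe set and array, and the software behind these intensities is not stated in the sources at hand. Trimmed means (2% off each end) ran from 800.165 to 800.436 over the arrays, and no further scaling was applied. Of 30 arrays 29 were used. Lower intensities were raised to a floor, the 40th percentile of the array type (236.05 for A, 297.36 for B, 200.93 for C), before taking log2. A test needed a value over the floor on 2 arrays or more, and control probe sets were left out. Group means of all 5 groups were fitted per type with limma 3.58.1 under R 4.3.3 (lmFit, eBayes with a variance trend), two-sided, with Benjamini-Hochberg adjustment across the 3 types. Symbols came from the platform annotation. The procedure was tested on simulated data. Members and gene lists were chosen with earlier results of these data known. Every collagen probe set is described. Other lists are given by counts, with up to 4 genes of smallest F test p, each gene through 1 tested probe set, plain ones first. Col6a3 was added beside the type VI members. At 2 d, 1 club cell (Cyp2f2), 2 heart and 2 skeletal muscle markers also passed, all lower.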

Additional observations from a re-analysis of the deposited data

How the results depend on the processing

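Collagen probe sets past the threshold numbered 0 in all 8 planned comparisons and in the F test, and the count stayed at 0 with quantile normalization, median scaling, no filter, 5 arrays required above the floor, a floor at the 20th percentile, no trend, and adjustment within an array type. A fit with the replicate block gave 0 as well. Deviations of same-numbered samples correlated at -0.158 to 0.134, so no pairing by number was seen, though 2 samples a group cannot exclude one. At 2 d minus Norm, the fit to the groups compared alone gave 2 (Col4a1, adjusted p = 0.00452, and Col1a1 94305_at, adjusted p = 0.0251), with 2 arrays against 1 on type A, and leaving out 1 sample gave 0 to 1. At 2 d minus 10 h, leaving out the type A arrays labelled Norm 1b and 4 d 1a gave 6, against 2 with all arrays. Of 3599 values of single probe sets recomputed for the planned comparisons, 3476 kept their direction and side of the threshold. Of the rest, 119 changed direction while past it in neither fit and 4 came past it. None could be lost, since none was past the threshold in the reported fit. The largest reported change among the 119 was 0.485. The cause of these differences was not tested. The number of arrays, 2 a group and 1 of Norm on type A, limits every value, and levels near the floor give bounds.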
